A study of Mus musculus with 4 samples.

Results

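The Polycomb repressive complex 2 (PRC2) is the enzyme that methylates lysine 27 of histone H3, and its subunits were followed here in tumour cells of irradiated and non-irradiated mice. The 10 subunit genes Ezh1, Ezh2, Eed, Suz12, Rbbp4, Phf1, Mtf2, Phf19, Jarid2 and Aebp2 were taken by symbol from the platform's annotation, which gave 11 probe sets with 1 symbol each and 0 with several, among 19938 genes tested in the series. All 10 genes were measured, each by 1 probe set except Eed, which had 2. The set was chosen by name with the log2 differences of the same irradiated-against-control comparison known, so the values below describe 4 arrays and support no claim of their own.

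The cells were Dalton's lymphoma ascites (DLA), an ascites tumour passed from mouse to mouse as a suspension in the peritoneal fluid. The hosts were male Swiss mice of 4 to 5 months, and both groups carried the transplant. The irradiated group received 2 Gy of electrons to the whole body 8 days after transplantation and gave its cells 48 h later, and the control group was not irradiated. Each group had 2 one-colour arrays labelled as biological replicates 1 and 2. The labels leave unstated whether an array stands for 1 mouse or for several.

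PRC2 places the repressive H3K27me3 mark and keeps developmental genes silent in proliferating cells. Its core holds a SET-domain methyltransferase, either EZH2, which predominates in dividing cells, or EZH1, which is less active and persists in resting ones, together with SUZ12 as the scaffold, EED as the reader of the mark, and a histone-binding protein such as RBBP4. Accessory subunits divide the complex into PRC2.1, with one of the Polycomb-like proteins PHF1, MTF2 or PHF19, and PRC2.2, with JARID2 and AEBP2. The Polycomb-like proteins bind CpG-rich DNA and methylated H3K36, and JARID2 and AEBP2 link the complex to ubiquitinated H2A. Ezh2 and Eed are known targets of E2F, the family of transcription factors that drives entry into S phase.

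The promoter windows are shown for the 2 members with the widest differences on the arrays, Phf19 and Ezh1, and for the 3 other members whose window held an E2F-type motif. The sequences are RefSeq's, on build GRCm38.p6, from 250 bases before to 50 bases after an annotated transcription start, written 5′ to 3′ along the gene. The motifs searched on both strands were TTCCCGC, the variant TTGGCGC and the variant TTCGCGC, and capitals mark the matches. The windows lie at chr2:34913927-34914226 (minus strand) for Phf19, chr11:101226414-101226713 (minus) for Ezh1, chr6:47594981-47595280 (minus) for Ezh2, chr11:79992856-79993155 (plus) for Suz12 and chr4:129335321-129335620 (minus) for Rbbp4.
Phf19: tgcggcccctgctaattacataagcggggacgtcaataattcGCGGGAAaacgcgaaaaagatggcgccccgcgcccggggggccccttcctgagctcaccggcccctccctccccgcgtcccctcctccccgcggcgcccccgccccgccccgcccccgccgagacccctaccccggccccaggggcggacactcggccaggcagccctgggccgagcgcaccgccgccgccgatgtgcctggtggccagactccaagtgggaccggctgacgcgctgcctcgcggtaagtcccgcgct
Ezh1: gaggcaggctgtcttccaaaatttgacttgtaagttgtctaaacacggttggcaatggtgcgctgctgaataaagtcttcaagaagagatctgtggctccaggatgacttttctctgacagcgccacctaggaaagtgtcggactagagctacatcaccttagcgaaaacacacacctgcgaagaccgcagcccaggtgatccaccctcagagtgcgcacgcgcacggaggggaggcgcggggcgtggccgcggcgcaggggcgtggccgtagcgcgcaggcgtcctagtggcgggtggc
Ezh2: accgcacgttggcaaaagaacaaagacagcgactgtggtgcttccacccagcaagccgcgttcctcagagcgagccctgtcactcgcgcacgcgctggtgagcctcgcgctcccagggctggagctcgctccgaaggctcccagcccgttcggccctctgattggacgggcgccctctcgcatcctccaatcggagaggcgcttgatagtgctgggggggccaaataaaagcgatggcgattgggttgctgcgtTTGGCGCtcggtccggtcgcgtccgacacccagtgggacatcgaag
Suz12: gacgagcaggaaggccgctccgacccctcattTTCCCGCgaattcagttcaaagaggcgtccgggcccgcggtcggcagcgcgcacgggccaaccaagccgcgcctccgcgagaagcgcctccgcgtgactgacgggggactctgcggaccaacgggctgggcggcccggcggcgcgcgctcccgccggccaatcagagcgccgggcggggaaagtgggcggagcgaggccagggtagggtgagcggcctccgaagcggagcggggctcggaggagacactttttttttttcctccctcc
Rbbp4: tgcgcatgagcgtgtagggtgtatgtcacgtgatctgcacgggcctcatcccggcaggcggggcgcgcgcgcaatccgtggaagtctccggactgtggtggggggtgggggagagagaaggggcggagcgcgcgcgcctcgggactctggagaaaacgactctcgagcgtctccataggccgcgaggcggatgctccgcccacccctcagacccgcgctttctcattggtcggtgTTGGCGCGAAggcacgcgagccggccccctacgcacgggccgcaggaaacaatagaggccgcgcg

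RefSeq listed 14 promoter windows for the 10 members. An E2F-type motif was present in 4 of these 14, those of Phf19, Ezh2, Suz12 and Rbbp4, against 8.07% of all 32851 promoter windows in the table. In Phf19 the match was TTCCCGC on the minus strand of the window, at -208 to -202 from the start, and in Suz12 the same motif lay on the plus strand at -218 to -212. Ezh2 held TTGGCGC at 5 to 11 bases after the start. In Rbbp4 a TTGGCGC match at -15 to -9 overlapped a TTCGCGC match on the other strand at -12 to -6. The window of Ezh1, like the remaining ones, held none of these E2F-type motifs. The cell cycle element CHR (TTTGAA) matched in 4 windows, of Eed, Suz12, Mtf2 and Aebp2, against 17.9% of all windows. The GC box (CCGCCC) matched in 9 windows from 7 genes, against 35.7% of all. Phf19 had 4 GC boxes, of which neighbours share bases, and the highest GC content of the member windows, 74.3%. These matches are descriptions of sequence and do not show binding.

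**Figure D1:**
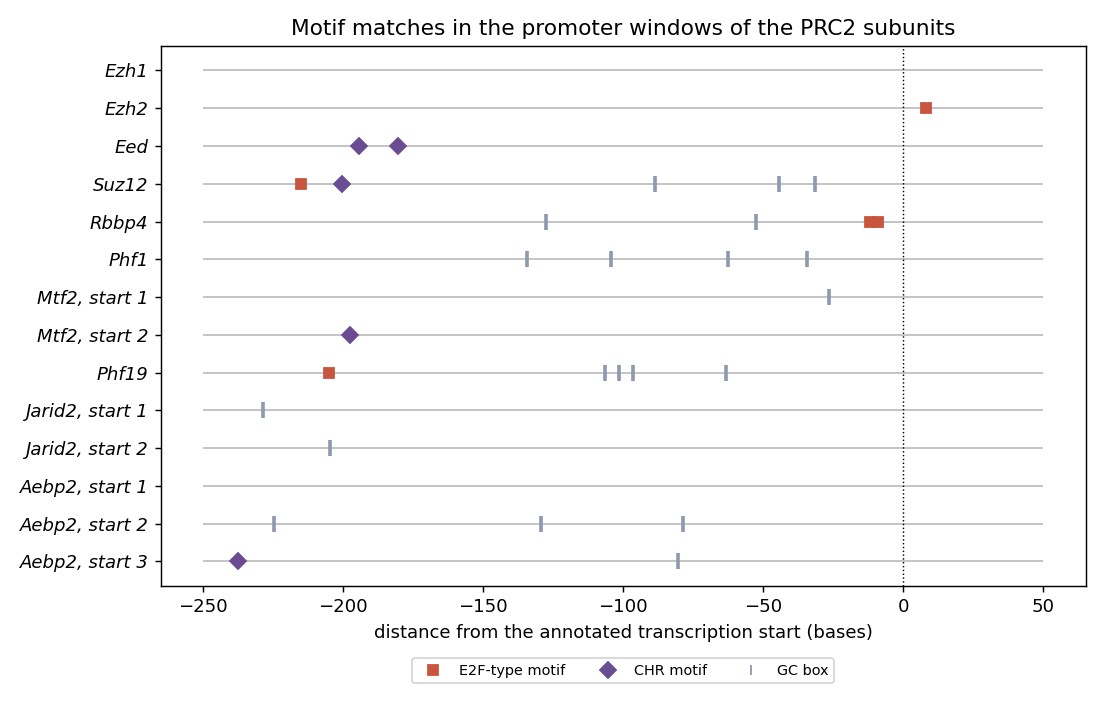
Motif matches in the 14 promoter windows of the PRC2 subunits, by distance in bases from the annotated transcription start (dotted line). Squares mark E2F-type motifs, diamonds the CHR and ticks the GC box. Red squares appear for Phf19, Suz12, Rbbp4 and Ezh2, and the Ezh1 window holds no mark.

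Values below are log2 probe set intensities made by RMA, a method that corrects background, normalizes the arrays to one another and summarises the probes of a probe set, so a difference of 1 is a doubling. Levels of different genes are not set against each other, because probe sets differ in efficiency. All 10 members were readily measured, since between 67.16% and 98.21% of the genes tested had a lower mean signal. The arrays were not equally close to their replicates. Over all genes the SD of the difference between replicates was 0.167 for control and 0.362 for irradiated arrays, and the irradiated group had the larger SD for 69.4% of genes and for 8 of the 10 members.

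The label of a lymphoma was set against marker genes, as a coarse description, since a probe set's level depends on its probes and a low level does not show absence. All 11 T cell markers and all 9 B cell markers tested had a mean signal below the median of all genes. The pan-leukocyte markers were mixed, with 10 of 15 below that median, among them Ptprc, the common leukocyte antigen, at 5.64 ± 0.01 in control arrays (SD, n = 2), and 5 above it, among them Lcp1 at 11.25 ± 0.08. Of 12 trophoblast markers, 6 were below that median. The epithelial keratin genes Krt8 and Krt18, on the same list, had control means of 14.09 and 13.415. Their mean signals were above those of 99.93% and 99.6% of genes. Of the other genes on the list, Eomes was above 90.51% of genes and Tpbpa above 5.48%. Which cells carried this signal was not tested. In such bulk RNA, fewer cells of a type and less RNA per cell cannot be told apart.

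The widest difference among the members was that of 1 accessory subunit, Phf19, followed by the core subunit Ezh1 in the opposite direction. Phf19 (probe set 10481931) encodes PHF19, the Polycomb-like protein PCL3, which recruits PRC2 to chromatin through its Tudor and winged-helix domains. Phf19 measured 7.38 and 7.18 in the control arrays and 8.92 and 8.98 in the irradiated arrays. Both irradiated arrays lay above both controls, and the gap between groups was wide beside the gaps within them. The group means were 7.28 ± 0.14 and 8.95 ± 0.04 (log2, SD, n = 2 each), which is a log2 difference of 1.67 with a standard error of 0.13, or 3.18-fold. Of 19938 genes, 29 had a higher difference, so Phf19 stood near the upper end of the whole array.

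The other Polycomb-like genes differed little. Mtf2 (probe set 10523905), whose protein guides PRC2.1 to unmethylated CpG islands, measured 8.64 and 8.60 in control and 8.68 and 8.86 in irradiated arrays, a log2 difference of 0.15 with a standard error of 0.12. Phf1 (probe set 10443063), the third Polycomb-like gene, measured 8.25 and 8.23 in control and 8.10 and 8.23 in irradiated arrays, a log2 difference of -0.075 with a standard error of 0.12. For Mtf2 both irradiated arrays were slightly above both controls, and for Phf1 the lower control and the higher irradiated array were equal. The signal of Phf19 relative to Mtf2 was therefore 1.52 higher in irradiated than in control arrays on the log2 scale, and relative to Phf1 it was 1.745 higher.

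The PRC2.2 subunits also differed little. Jarid2 (probe set 10404848), a catalytically inactive Jumonji protein that helps recruit PRC2, measured 10.64 and 10.73 in control and 10.92 and 10.80 in irradiated arrays, a log2 difference of 0.175 with a standard error of 0.12. Aebp2 (probe set 10542557), a zinc finger protein that stabilises the complex, measured 8.69 and 8.72 in control and 8.94 and 8.71 in irradiated arrays, a log2 difference of 0.12 with a standard error of 0.13. The groups of Jarid2 did not overlap, whereas for Aebp2 irradiated replicate 2 lay between the controls and replicate 1 alone carried the difference.

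**Figure D2:**
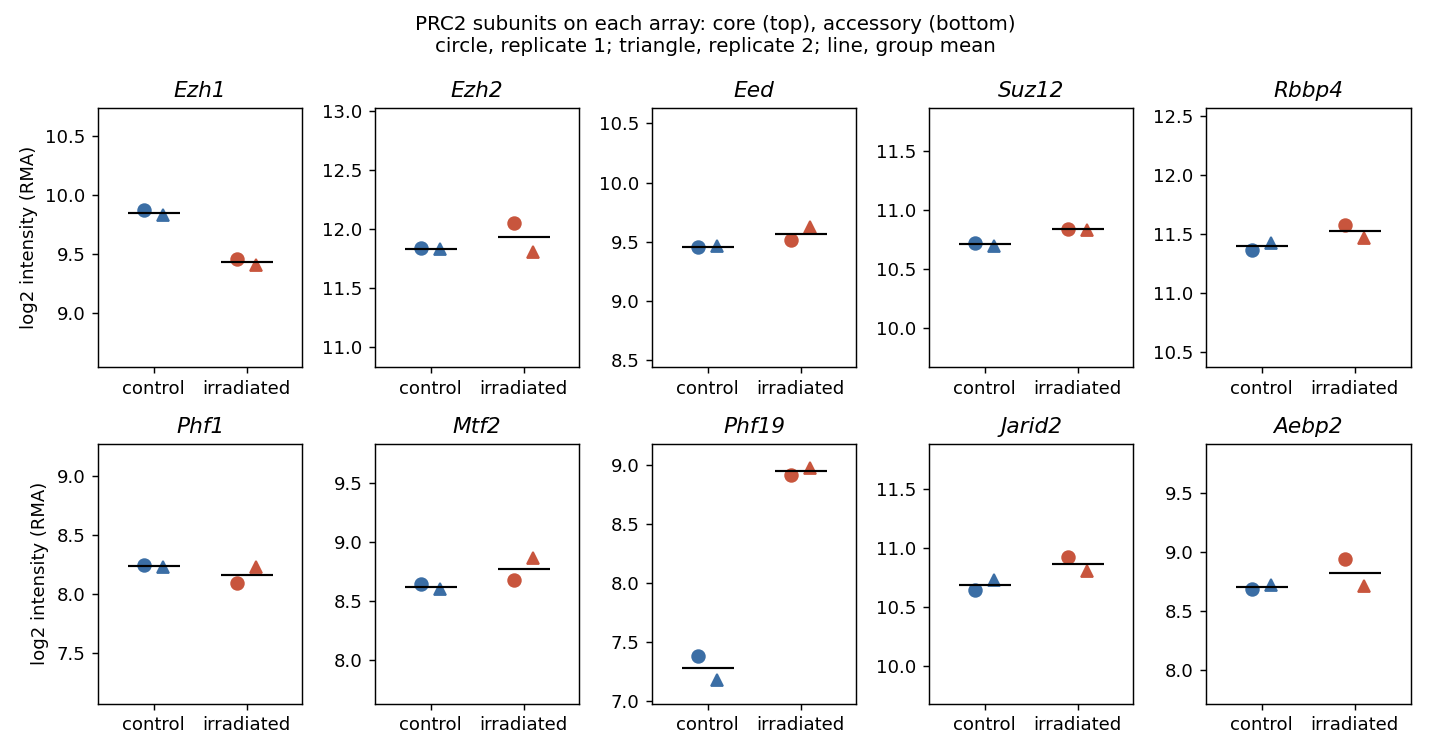
Log2 RMA intensity of the 10 PRC2 subunits on each array, in control (blue) and irradiated (red) samples, with circles for replicate 1, triangles for replicate 2 and a line at each group mean. Every panel spans the same range of log2 units around its own midpoint. Phf19 moves from 7.28 to 8.95, Ezh1 from 9.85 to 9.44, and the other 8 panels are almost flat.

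Among the core subunits, the 2 methyltransferase genes had differences of opposite sign. Ezh1 (probe set 10391378) measured 9.87 and 9.83 in the control arrays and 9.46 and 9.41 in the irradiated arrays. Both irradiated arrays were lower than both controls, with tight replicates in each group. The means were 9.85 ± 0.03 and 9.44 ± 0.04 (SD, n = 2 each), a log2 difference of -0.415 with a standard error of 0.11, or 1.33-fold lower. Of all genes, 623 had a lower difference. Ezh2 (probe set 10544501) measured 11.84 and 11.83 in control and 12.05 and 11.81 in irradiated arrays, a log2 difference of 0.095 with a standard error of 0.13. Irradiated replicate 1 was above and replicate 2 just below the controls, so the Ezh2 groups overlapped. The signal of Ezh2 relative to Ezh1 was 0.605 and 0.415 above its control mean in irradiated replicates 1 and 2, on the log2 scale, and lay within 0.015 of that mean in both controls.

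The remaining core genes had differences of similar small size. Suz12 (probe set 10379346) measured 10.72 and 10.69 in control and 10.84 and 10.83 in irradiated arrays, a log2 difference of 0.13 with a standard error of 0.11. Rbbp4 (probe set 10516576), which also serves other histone-modifying and chromatin assembly complexes, measured 11.37 and 11.43 in control and 11.58 and 11.47 in irradiated arrays, a log2 difference of 0.125 with a standard error of 0.12. For Suz12 and Rbbp4 the irradiated arrays were above the controls by small steps. Eed (probe set 10565486) measured 9.45 and 9.46 in control and 9.51 and 9.62 in irradiated arrays, a log2 difference of 0.11 with a standard error of 0.11. The second Eed probe set, 10554837, had the opposite sign, with 4.54 and 4.42 in control and 4.34 and 4.27 in irradiated arrays, and was dim, since 10.08% of genes had a lower mean. The annotation pairs it with a single cDNA and with no RefSeq transcript of Eed.

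**Figure D3:**
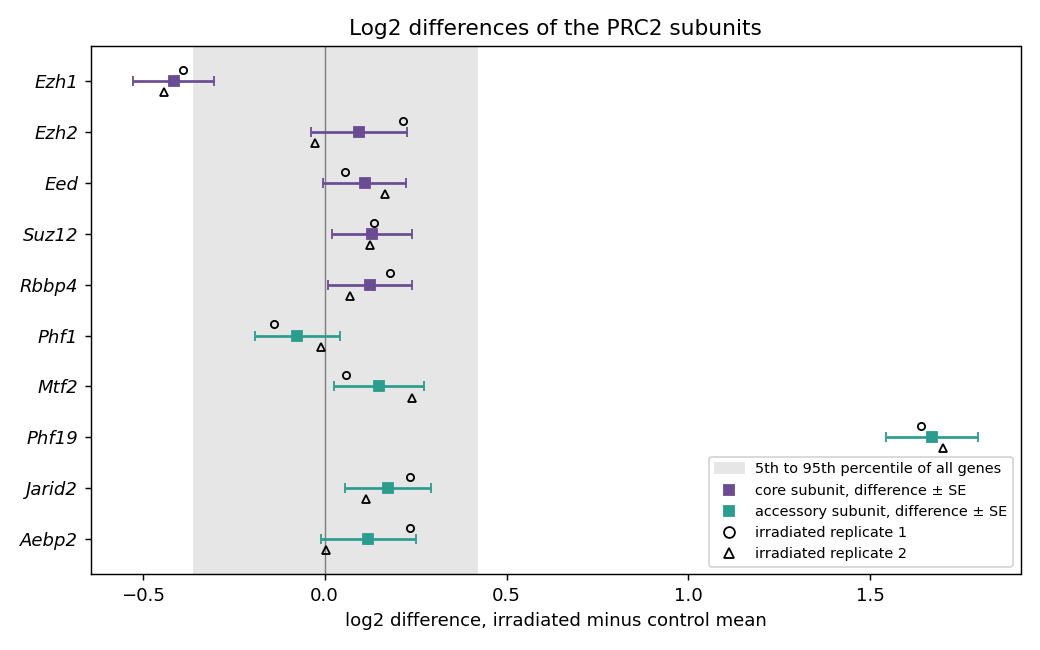
Log2 difference of each PRC2 subunit between irradiated and control arrays, with its limma standard error, core subunits in purple and accessory subunits in green. Open symbols give each irradiated array minus the control mean, and the grey band runs from -0.36 to 0.42, the 5th and 95th percentiles of all genes. Phf19 at 1.67 and Ezh1 at -0.415 lie outside the band and the other 8 subunits inside it.

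The medians of core and accessory subunits lay close to each other. The median log2 difference was 0.11 over the 5 core genes and 0.15 over the 5 accessory genes, against -0.03 over all genes tested. Without Phf19 the accessory median was 0.135, and without Ezh1 the core median was 0.1175. The wider range was among the accessory genes, from -0.075 to 1.67, against -0.415 to 0.13 in the core. The core median was 0.07 without irradiated replicate 1, and the accessory median was 0.235 without irradiated replicate 2. Apart from Phf19 and Ezh1, the 8 other subunits had log2 differences between -0.075 and 0.175.

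In limma across all genes with Benjamini-Hochberg adjustment, 0 of the 10 members passed an adjusted p of 0.05, where 0.00502% of all genes did (1 gene, Ly6g). The adjusted p was 0.193 for Phf19, 0.394 for Ezh1 and between 0.643 and 0.847 for the others. At an unadjusted p under 0.05, 2 of 10 members were counted, Phf19 and Ezh1, against 10.3% of all genes. Positive log2 differences were seen for 8 members and negative ones for 2, against 43.4% and 55.4% of genes. The irradiated arrays were both above the controls for 6 members, against 17.8% of genes, and both below for 1, against 23.9%. A difference of at least 1.5-fold was seen for 1 member, Phf19, against 2.95% of genes. The members were chosen with this contrast known, so nothing is read from these shares. Leaving out any single array kept the log2 difference of Phf19 between 1.57 and 1.77 and that of Ezh1 between -0.44 and -0.39. The sign of Ezh2 turned without irradiated replicate 1 (-0.025).

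The other Polycomb machinery was followed in lists that do not include these subunits. Of 7 further PRC2 partners, 0 passed the adjusted threshold in limma and 0 an unadjusted p under 0.05, against 10.3% of all genes. The median log2 difference was 0.01. This median had no stable sign, at -0.015 without control replicate 2 and 0.10 without irradiated replicate 2. Eloc, the elongin C subunit that joins some PRC2.1 complexes with EPOP, was 0.305 higher (limma adjusted p = 0.568). Its irradiated replicates 1 and 2 were 0.11 and 0.50 above the control mean, so its difference came mostly from replicate 2. Epop itself had a difference of -0.195, with overlapping groups. The 2 demethylases that remove methyl groups from H3K27, Kdm6b and Kdm6a, had differences of 0.41 and 0.045 (limma adjusted p = 0.526 and 0.965). Kdm6b measured 9.05 and 9.03 in control and 9.70 and 9.20 in irradiated arrays, so its difference came mostly from irradiated replicate 1.

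PRC1 is the partner complex that ubiquitinates histone H2A and binds H3K27me3 through its CBX subunits. Of 22 PRC1 genes tested, 0 passed the adjusted threshold in limma and 0 an unadjusted p under 0.05, against 10.3% of all genes. There were 6 positive and 16 negative differences, against 43.4% and 55.4% of all genes, and the median was -0.095. Without irradiated replicate 2 this median was -0.0125. The smallest p-values belonged to Auts2 (-0.345), Bcor (0.32), Rybp (-0.255) and Pcgf1 (-0.39), all on the log2 scale with adjusted p between 0.488 and 0.536 in limma. Rybp and Pcgf1 encode parts of variant PRC1 complexes, and Bcor a corepressor that binds PCGF1. Of 9 genes of PR-DUB, the complex that removes ubiquitin from H2A, 0 passed the adjusted threshold in limma and 1 an unadjusted p under 0.05, against 10.3% of all genes. It was the forkhead factor gene Foxk1 (log2 difference -0.385, limma adjusted p = 0.442). The median over PR-DUB genes was 0.035, and in fits that left out irradiated replicate 1 or 2 it was 0.105 or -0.01.

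Hox genes are classical targets of Polycomb repression. Of 37 tested, 0 passed the adjusted threshold in limma, and at an unadjusted p under 0.05 there were 2 higher and 3 lower, against 5.21% and 5.1% of all genes, with a median log2 difference of -0.09 and 22 of the 37 below the median signal of all genes. Hoxc6 measured 8.40 and 8.36 in control and 8.76 and 8.83 in irradiated arrays (difference 0.415, limma adjusted p = 0.397). Hoxc13 measured 7.42 and 7.34 in control and 7.73 and 8.67 in irradiated arrays, an uneven difference of 0.82 (limma adjusted p = 0.465). Hoxd9 and Hoxa13 had differences of -0.41 and -0.32. The Hox list median was -0.045 without irradiated replicate 2.

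**Figure D4:**
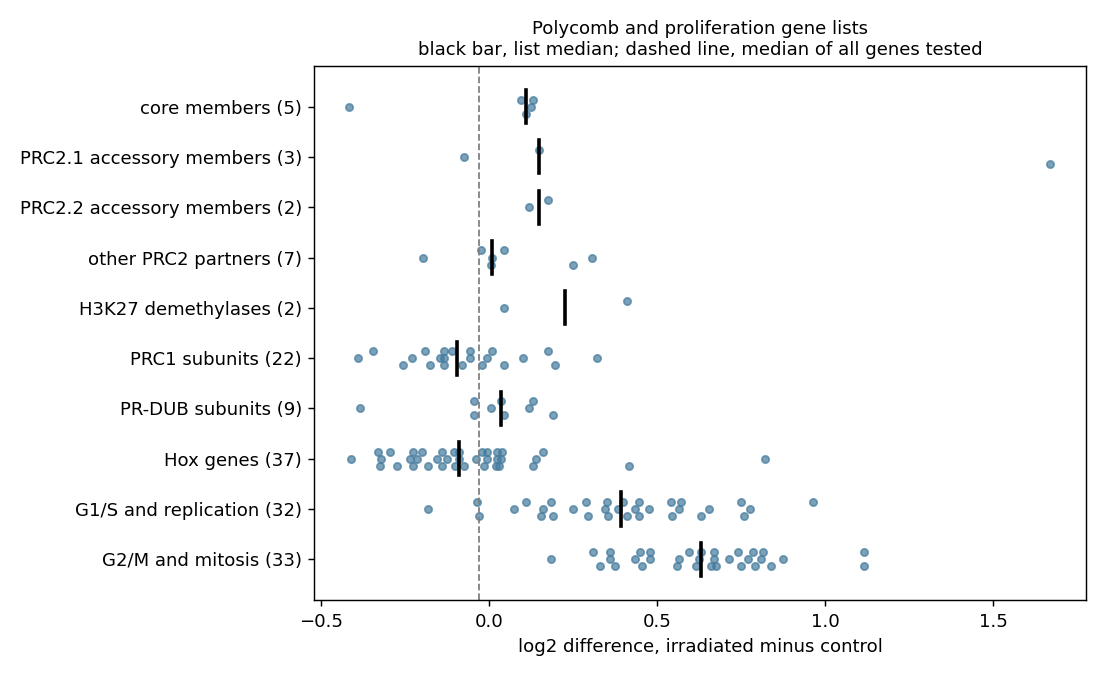
Log2 difference between irradiated and control arrays for every tested gene of the Polycomb lists and of 2 proliferation lists, with the number of genes in brackets, a black bar at each list median and a dashed line at the median of all genes (-0.03). Polycomb lists centre between -0.095 and 0.2275, Phf19 is the isolated point at 1.67 in PRC2.1, and the mitosis list centres at 0.63.

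Proliferation genes were higher on the same irradiated arrays. In the G2/M list 33 of 33 genes had a positive log2 difference, with a median of 0.63, and in the G1/S and replication list 29 of 32, with a median of 0.3925, against 43.4% of all genes. Of these, 0 passed the adjusted threshold in limma, and 24 and 15 were higher at an unadjusted p under 0.05, against 5.21% of all genes. Mki67, the proliferation marker, was 0.81 higher, E2f1 0.345, Mcm2 0.29 and Pcna 0.155. The groups of E2f1 and Mcm2 overlapped. Irradiated replicates 1 and 2 were 0.59 and 0.10 above the control mean for E2f1, and 0.57 and 0.01 for Mcm2. The log2 difference of Phf19 was above the highest of either list, 1.115 and 0.965. Ezh2, Suz12 and Rbbp4, whose promoter windows held an E2F-type motif, lay between 0.095 and 0.13. In irradiated replicates 1 and 2 the G2/M medians were 0.86 and 0.34 above the control mean, and the G1/S medians 0.555 and 0.275. Phf19 was 1.64 and 1.70 above its control mean. Single G2/M genes varied, with Hmmr at 1.175 and 1.055 and Kif23 at 0.77 and -0.05. The part of proliferation or of E2F in the Phf19 and Ezh1 differences was not tested.

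Markers of several cell types were read on the same arrays, and Ly6g was the 1 marker past the adjusted threshold in limma. Whether their signal came from host or tumour cells was not tested. Of 17 neutrophil markers, 3 had a positive and 14 a negative log2 difference, against 43.4% and 55.4% of all genes, with a median of -0.235 that was -0.415 without irradiated replicate 1. The mean log2 signal of the neutrophil list was 6.53 and 6.65 in control and 6.17 and 6.39 in irradiated arrays. These irradiated means include Lcn2, which was 4.47 higher in irradiated replicate 2 than in replicate 1. Within the list Ly6g was 3.12 higher and S100a8 had a difference of -0.80. The erythroid list of 8 tested genes had a median of -0.1325, with mean log2 signals of 5.77 and 5.78 in control and 5.71 and 5.59 in irradiated arrays, and Alas2 had a difference of -0.695. The 14 macrophage markers had a median of -0.0175 (7 higher, 7 lower) and ranged from -0.52 (Csf1r) to 0.90 (Mrc1). Their means were 6.19 and 6.20 in control and 6.29 and 6.15 in irradiated arrays. Of the 14, 11 had a mean signal below the median of all genes. Among them Adgre1 was dim, with group means of 4.22 and 4.23, whereas Cd68 was above that median at 8.96. The 15 pan-leukocyte markers had a median of -0.125, with means of 6.88 and 6.93 in control and 6.84 and 6.61 in irradiated arrays, and the T and B cell lists had medians of -0.14 and -0.055. Leaving out 1 array gave medians from -0.23 to -0.0075 for erythroid, -0.0875 to 0.0975 for macrophage, -0.23 to -0.05 for pan-leukocyte, -0.28 to -0.04 for T cell and -0.18 to 0.015 for B cell markers. The 12 trophoblast markers had a median of -0.03, which was -0.105 without control replicate 1 and 0.0175 without control replicate 2. Of them 6 had a positive and 6 a negative difference. Krt8 was at -0.475 and Krt18 at -0.60, while Eomes was at 0.365 and Gata3 at 0.32. The part of these markers in the differences of the PRC2 subunits was not tested.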

How the data were processed

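The data were 4 one-colour arrays of total RNA, 2 per group, labelled with biotin from 300 ng of RNA per the labels' protocols. The deposited values are log2 intensities from RMA, which the submitters' processing notes name without a version. No source used here names the build behind the array annotation. RMA gives all arrays a similar distribution, so a shift common to most genes cannot be seen, and folds of dim probe sets are compressed. The number of arrays limits the precision. A limma p-value sets the difference between groups against the spread within groups, moderated by a prior taken over all genes.

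Of 35556 probe sets, 21789 had 1 symbol in the platform annotation, 1621 had several and 12146 were not listed. Symbols were updated by Entrez identifier for 21698 through the RefSeq gene table (GRCm38.p6). The brightest probe set by the mean of all arrays stood for each of 999 genes with more than 1, which left 19938 genes. Groups were compared with limma 3.58.1 in R 4.3.3 (lmFit and eBayes, two-sided, 2 residual and 3.48 prior degrees of freedom), adjusted over all genes. The procedure was tested on simulated data with the same spread in both groups. That test does not cover the unequal spread of the control and irradiated arrays. Lists are described by counts and medians. An exact permutation test of 2 against 2 arrays cannot go below a two-sided p of 0.333, so none is given.

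The members and lists were chosen with earlier results of these data known. Named genes were the 10 members, up to 4 of each Polycomb list with the smallest unadjusted p, and fixed proliferation and cell type markers. Listed genes with no probe set of 1 symbol were not analysed here. Promoter motifs were counted by exact match in RefSeq windows. Alternatives were 2 filters on dim genes, quantile normalization, centring, averaged probe sets per gene, leaving out each array, a replicate block and eBayes with trend or robust.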

Additional observations from a re-analysis of the deposited data

How the results depend on the processing

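The count of 0 members past the adjusted threshold held under all 12 alternatives, with the adjusted p of Phf19 between 0.102 and 0.998 in limma. In all 12 the log2 difference of Phf19 was between 1.57 and 1.77 and that of Ezh1 between -0.44 and -0.39. Of 121 alternative values for single members, 118 moved by no more than the SD between replicates. The other 3 were Suz12 with centred arrays (0.155) and Eed as the mean of both probe sets (-0.0325) or by its dim probe set (-0.175). For most of the 121 the outcome was fixed in advance, so the count does not measure robustness. The filters and the block, trend and robust fits leave a member's difference unchanged, and leaving out 1 array cannot shift it beyond that SD. Only quantile normalization, centring and, for Eed, the second probe set could move a member further. Leaving out 1 array gave 0 genes past the adjusted threshold in every case, against 1 gene on 4 arrays. It gave from 381 (without control replicate 1) to 5924 (without irradiated replicate 1) genes at an unadjusted p under 0.05 against 2055, with 410 without control replicate 2. It gave core medians from 0.07 to 0.135 and accessory medians from 0.115 to 0.235. Same-numbered arrays were not shown to be pairs: their deviations correlated with r = 0.068 over genes. With the replicate block 0 genes passed the adjusted threshold, 1705 had an unadjusted p under 0.05, and the adjusted p of Phf19 was 0.57. In the fits that left out 1 array, the spread came only from the group that kept 2 arrays, moderated by the prior. The SD of the difference between replicates was 0.167 for control and 0.362 for irradiated arrays. The counts of those fits are therefore not comparable with each other or with the count on 4 arrays. The cause of the other shifts was not tested. Of 165 alternative medians of the other lists, 139 moved by no more than the SD between replicates. The block, trend and robust fits leave these medians unchanged too. The neutrophil median was 1.285 among genes at or above the median signal, against -0.235 over all 17 markers. Of these 17, 14 had a mean signal below that of the median gene. The filtered list held only Ly6g (3.12), Mmp9 (1.285) and Lcn2 (-0.09), so its median was the difference of Mmp9 alone.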
